A study of Mus musculus with 42 samples.

Results

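Expression of 10 genes of endothelial cells and pericytes, the cells that build brain capillaries, was followed in striatum and hippocampus of mice treated with an inhibitor of phosphodiesterase 10. The genes were taken by name: Cldn5, Esam, Sox17, Pecam1, Flt1, Kdr, Tek, Cdh5, Rgs5 and Abcb1a. They are measured by 19 of the 34945 probe sets that carry a single gene. With the brightest probe set standing for each gene, they make up 10 of 18193 genes. All mice were of the C57BL6 strain, wild type (WT) or labelled as PDE10A knockout (KO), and received the inhibitor (PDE10i) or vehicle (Veh). Striatum was represented by 4 KO PDE10i, 6 WT PDE10i, 5 KO Veh and 5 WT Veh arrays, and hippocampus by 5 KO PDE10i, 6 WT PDE10i, 5 KO Veh and 6 WT Veh arrays. The labels used here do not state the compound, its dose, the time after dosing, the knockout allele or the age of the mice. Labelled RNA of snap-frozen, dissected tissue was hybridised to 42 Affymetrix arrays, so each value is an average over all cells of the piece. The labels do not say whether each array is a different mouse, and the p-values below refer to the spread among arrays, part or all of which may be technical.

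Brain endothelial cells are sealed by tight junctions, carry pumps and transporters for selected molecules, and together with pericytes form the blood-brain barrier. Vascular endothelial growth factor and the angiopoietins act on them through the receptors coded by Flt1, Kdr and Tek, and SOX factors such as Sox17 set endothelial and arterial identity. Pericytes lie on the outer face of the capillary and share its basement membrane. These genes are widely used to follow the vascular content of brain tissue. In whole tissue, fewer or more vessel cells and less or more RNA per vessel cell cannot be told apart.

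RefSeq promoters (assembly GRCm38.p6, 250 bases before and 50 after the annotated start) were found for 6 of the 10 genes: Abcb1a, Cldn5, Flt1, Kdr, Rgs5 and Tek. Those of Rgs5, Tek and Cldn5 are shown because, of these 6, they had the largest drug differences in WT striatum, described below. Rgs5 lies at chr1:169655251-169655550, Tek at chr4:94739039-94739338 and Cldn5 at chr16:18776597-18776896, all on the plus strand. Capitals mark CAGGAA, a sequence with the core bound by ETS factors, and AACAAT, one bound by SOX factors. Both strands were searched, so CAGGAA can stand as TTCCTG and AACAAT as ATTGTT.
Rgs5: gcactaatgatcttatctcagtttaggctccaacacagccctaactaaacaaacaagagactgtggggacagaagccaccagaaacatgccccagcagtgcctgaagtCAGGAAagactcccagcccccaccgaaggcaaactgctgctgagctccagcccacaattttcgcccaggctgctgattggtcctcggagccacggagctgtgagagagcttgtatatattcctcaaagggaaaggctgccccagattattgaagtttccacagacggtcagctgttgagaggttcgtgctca
Tek: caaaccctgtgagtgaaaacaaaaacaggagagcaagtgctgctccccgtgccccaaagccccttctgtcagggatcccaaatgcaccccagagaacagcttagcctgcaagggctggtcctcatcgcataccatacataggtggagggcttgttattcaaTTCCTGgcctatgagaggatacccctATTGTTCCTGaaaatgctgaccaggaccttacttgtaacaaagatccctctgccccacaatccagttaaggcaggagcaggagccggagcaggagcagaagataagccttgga
Cldn5: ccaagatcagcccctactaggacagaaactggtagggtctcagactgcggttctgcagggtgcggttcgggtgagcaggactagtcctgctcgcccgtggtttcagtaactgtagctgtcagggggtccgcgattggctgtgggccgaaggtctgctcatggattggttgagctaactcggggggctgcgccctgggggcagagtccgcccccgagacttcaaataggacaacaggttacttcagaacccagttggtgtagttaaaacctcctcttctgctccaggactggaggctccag
CAGGAA was present in the window of 2 of the 6 genes, once in Rgs5 and at 2 places in Tek, and in 30.55% of 32851 promoters of this length. AACAAT was present in 1 of the 6 (Tek) and in 10.72% of all promoters, and in Tek it overlaps a CAGGAA match by a pair of bases. TATAAA, the TATA box, was found in Flt1 alone of the 6 and in 13.62% of all promoters.

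Some arrays stood apart from their groups. A score built from 15 genes that lie, like Pde10a, on chromosome 17 was set to a median of 0 on WT Veh and 1 on KO PDE10i arrays, and none of the 10 vascular genes lies on that chromosome. In striatum, WT PDE10i arrays 13, 14 and 15 (0.589, 0.787 and 0.541) and KO Veh array 25 (0.0982) lay beyond 0.5 on the side of the other genotype. In hippocampus, WT PDE10i arrays 12 and 14 (1.04 and 0.79) and KO Veh arrays 25 and 26 (-0.0016 and 0.106) did. Results that rest on these 8 arrays are given with and without them. The Gapdh difference, the log2 signal of a 3′ minus a 5′ control probe set, is larger when RNA is shortened, and reached 1.05 on striatal WT Veh array 4. Striatal projection neuron markers averaged log2 11.49 or more on every striatal and 8.74 or less on every hippocampal array, so the labelled regions and their markers went together.

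At the brightest probe set of each gene, all 10 genes had their highest group mean in striatum of WT mice given PDE10i. Averaged over the 10 genes, log2 signal was 8.03 ± 0.31 (SD, n = 6) in that group, 7.69 ± 0.04 (n = 4) in striatal KO PDE10i, 7.80 ± 0.27 (n = 5) in striatal KO Veh and 7.62 ± 0.11 (n = 5) in striatal WT Veh. The hippocampal means were 7.69 ± 0.11 (n = 5) in KO PDE10i, 7.54 ± 0.05 (n = 6) in WT PDE10i, 7.61 ± 0.08 (n = 5) in KO Veh and 7.63 ± 0.06 (n = 6) in WT Veh. Striatal KO Veh came next for 9 of the 10 genes, and hippocampal WT PDE10i was lowest for 7. The share of all genes with this order of groups was not counted, and the 10 genes varied together across arrays, as given below. Neighbours in this order mostly did not differ beyond their spread: of 70 pairs of groups that are neighbours in a gene's order, only 1 was separated by more than the larger SD of the pair. That pair was striatal WT PDE10i over striatal KO Veh for Sox17. The order was not the same at every probe set. The other Flt1 probe sets and the dimmer Cdh5 probe set had their highest mean in striatal KO PDE10i or striatal KO Veh. The brightest of these Flt1 sets averaged 8.59 in striatal KO PDE10i and 8.57 in striatal WT PDE10i.

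**Figure D1:**
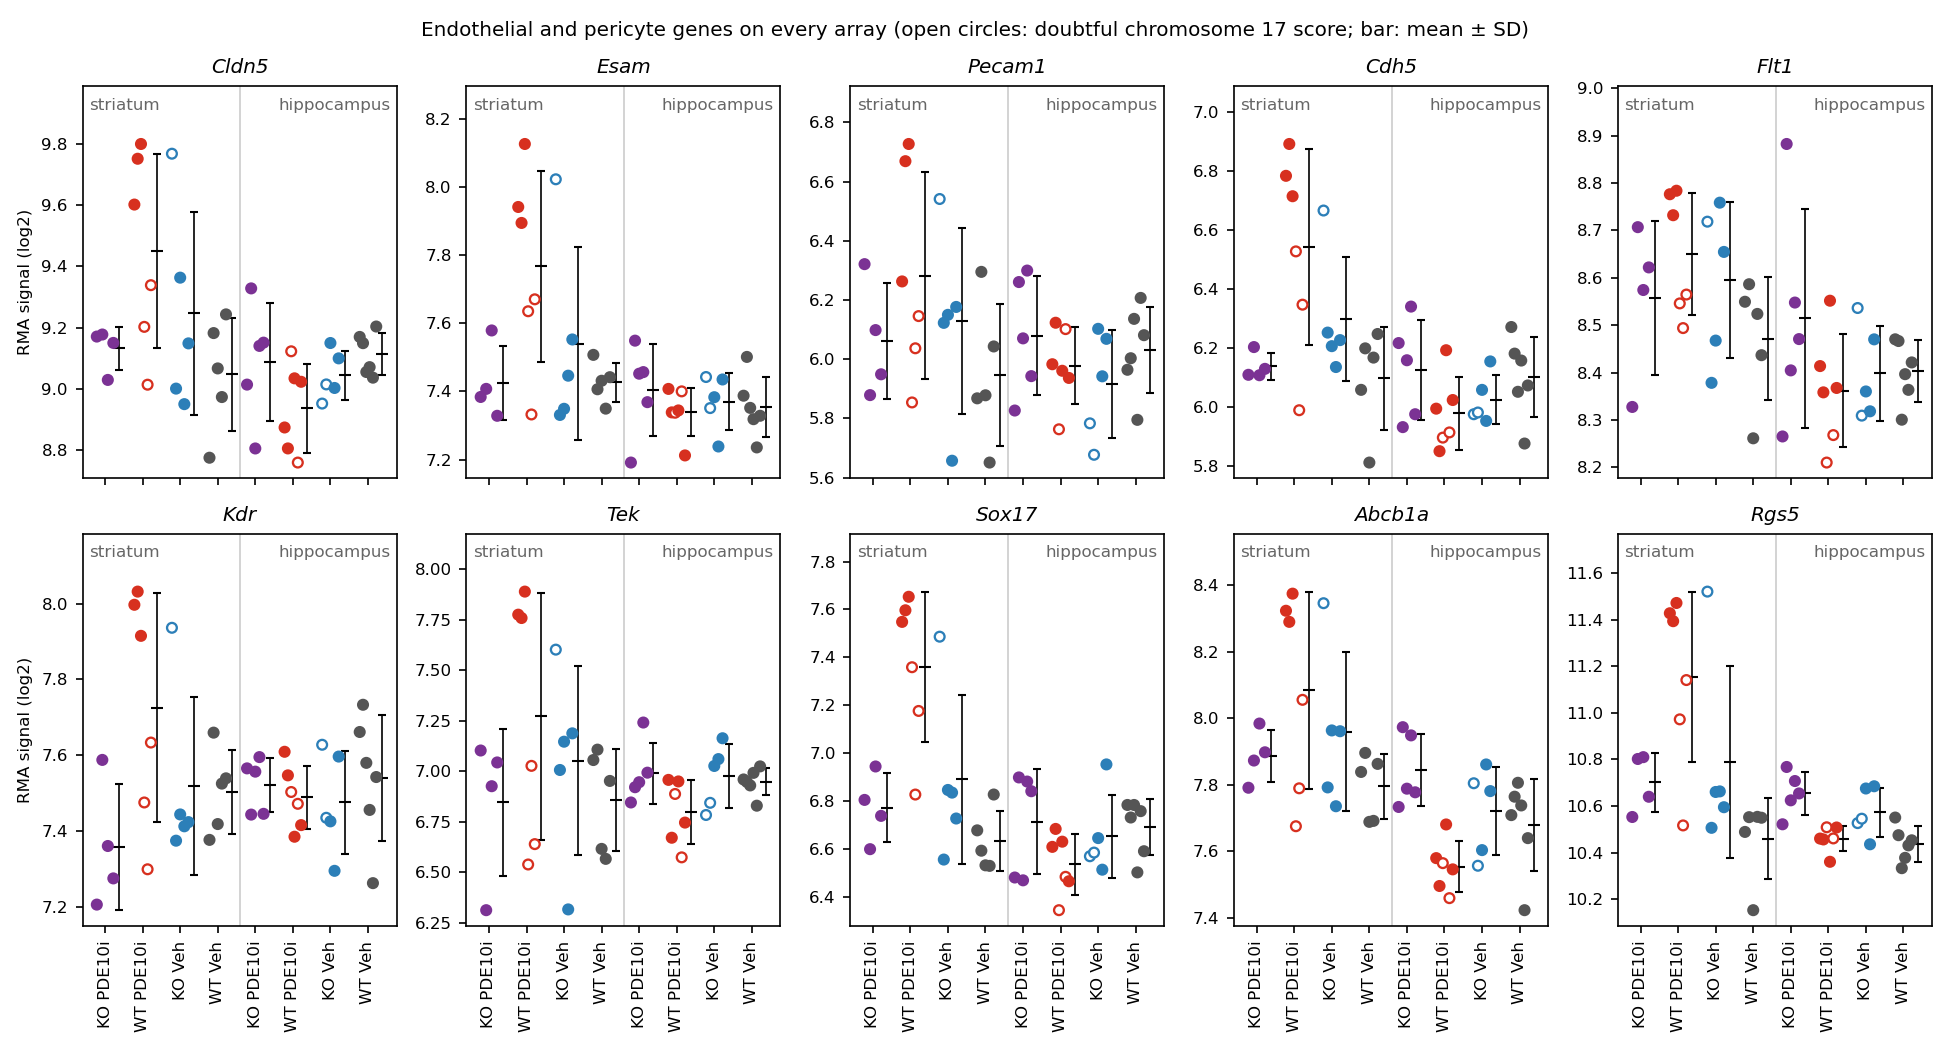
Log2 signal (RMA) of the 10 endothelial and pericyte genes on all 42 arrays, by group, with the mean and SD beside each group and open circles for the 8 arrays whose chromosome 17 score lay on the other genotype's side. Within striatal WT PDE10i, 3 arrays (10, 11 and 12) lie above every WT Veh array for nearly every gene, and a single striatal KO Veh array (25) lies with them.

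Within the striatal groups the spread was widest in WT PDE10i and KO Veh, and 4 arrays of these groups made up the high end. The mean of the 10 genes was 8.24, 8.30 and 8.35 on WT PDE10i arrays 10, 11 and 12, and 7.78, 7.63 and 7.87 on WT PDE10i arrays 13, 14 and 15. It was 8.26 on KO Veh array 25 and 7.59 to 7.77 on the other 4 KO Veh arrays. KO PDE10i arrays spanned 7.65 to 7.74 and WT Veh arrays 7.49 to 7.75. WT PDE10i arrays 11 and 12 exceeded all WT Veh arrays for 10 of 10 genes and array 10 for 9, the exception being Pecam1, whereas arrays 13, 14 and 15 did so for 4, 0 and 6. KO Veh array 25 exceeded all WT Veh arrays for 10 of 10 genes, and the remaining KO Veh and KO PDE10i arrays for 1 to 5. The share of all genes above the WT Veh range on each array was not counted. These counts are therefore descriptions and do not set the 10 genes apart from other genes. The 3 WT PDE10i arrays with high vascular signal are those whose chromosome 17 score lay on the WT side, and the high KO Veh array is the only striatal one of its group with a score on that side. All 5 striatal WT Veh arrays lay on that side too (-0.186 to 0.105), with the low means given above.

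**Figure D2:**
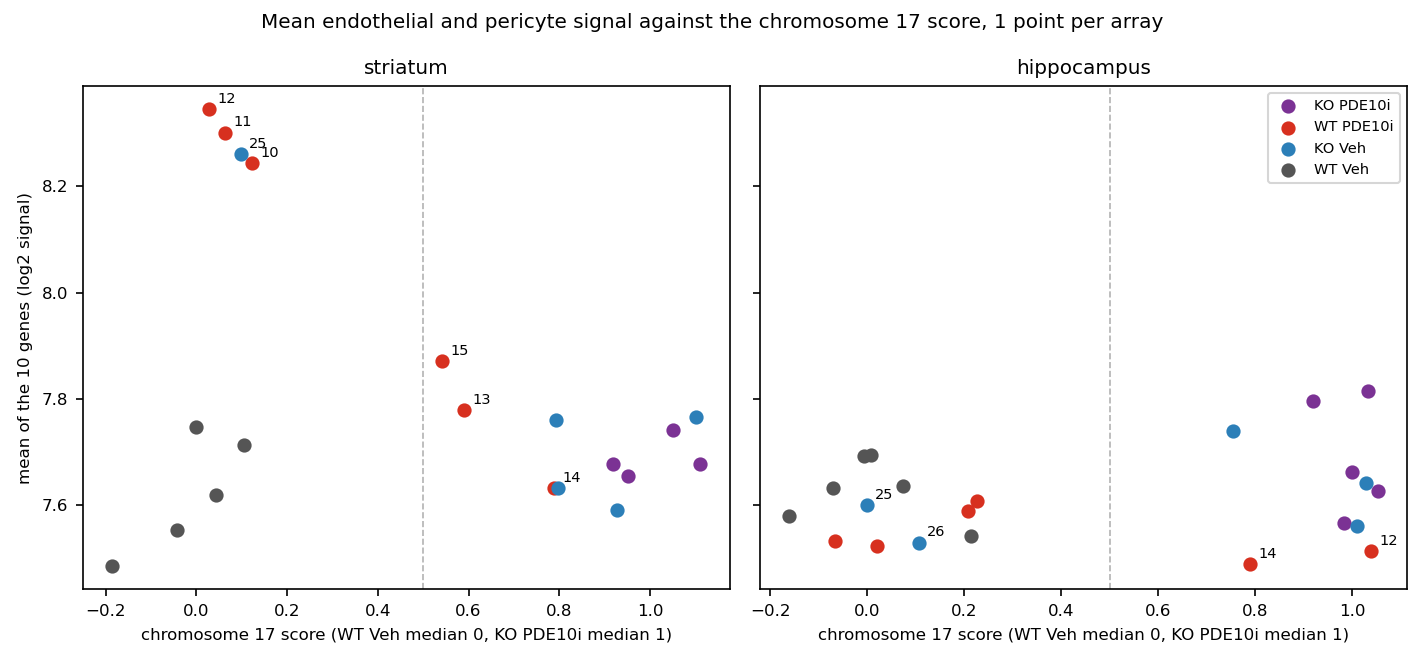
Mean log2 signal of the 10 genes against the chromosome 17 score, 1 point per array, in striatum and in hippocampus; the dashed line marks the score of 0.5. In striatum the 4 arrays from 8.24 upward have scores of 0.123 or less, as do the 5 WT Veh arrays at 7.49 to 7.75. The hippocampal arrays span 7.49 to 7.82 at scores of either side.

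Among the genes of endothelial junctions in WT striatum, PDE10i went with higher mean signal of all 4, none of which passed the test across all arrays. Cldn5, the main claudin of brain endothelial tight junctions, had a lowest, median and highest log2 signal of 9.01, 9.47 and 9.80 on the 6 WT PDE10i arrays, against 8.77, 9.07 and 9.24 on the 5 WT Veh arrays. Arrays 10, 11, 12 and 15 lay above every WT Veh array and arrays 13 and 14 within their range. The Cldn5 difference was 0.40 ± 0.15 (SE, limma, adjusted p = 0.34), a fold of 1.32. Cdh5, which codes for VE-cadherin of the adherens junction, spanned 5.99, 6.62 and 6.89 (lowest, median, highest) with PDE10i, against 5.81, 6.17 and 6.25 with Veh. All PDE10i arrays but array 14 exceeded the Veh range for Cdh5, and the difference was 0.45 ± 0.13 (adjusted p = 0.214). Esam, an adhesion molecule of endothelial cells, had 7.33, 7.78 and 8.13 with PDE10i, against 7.35, 7.43 and 7.51 with Veh (0.34 ± 0.12, adjusted p = 0.345). Pecam1, the endothelial adhesion molecule CD31, had 5.85, 6.20 and 6.73 with PDE10i, against 5.65, 5.88 and 6.29 with Veh (0.34 ± 0.16, adjusted p = 0.523). For Esam and Pecam1 the groups overlapped, and only arrays 11 and 12 (Pecam1) or all but array 14 (Esam) were above the Veh range.

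None of the 3 growth factor and angiopoietin receptors passed the test. Tek, the angiopoietin receptor TIE2, had log2 signals of 7.77, 7.76, 7.89, 6.54, 7.03 and 6.64 on WT PDE10i arrays 10 to 15, against 7.05, 7.11, 6.61, 6.57 and 6.95 on WT Veh arrays 1 to 5. Tek split the treated group: arrays 10, 11 and 12 were above every Veh array, and array 13 was below all of them. Its difference was 0.41 ± 0.25 (adjusted p = 0.677), the least precise of the 10. Kdr, the main signalling receptor for VEGF-A, had 7.30, 7.77 and 8.03 (lowest, median, highest) with PDE10i, against 7.38, 7.53 and 7.66 with Veh (0.22 ± 0.13, adjusted p = 0.646). Flt1, another receptor, that binds VEGF-A tightly and signals weakly, had 8.49, 8.65 and 8.78 with PDE10i, against 8.26, 8.52 and 8.59 with Veh (0.18 ± 0.09, adjusted p = 0.538). Both groups overlapped for Kdr and Flt1, and Flt1 had the smallest difference of the 10 genes.

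Sox17 rose. This transcription factor of arterial endothelium had log2 signals of 7.55, 7.60, 7.65, 7.36, 6.83 and 7.18 on WT PDE10i arrays 10 to 15, against 6.68, 6.59, 6.53, 6.53 and 6.83 on WT Veh arrays 1 to 5. Only array 14 reached down to the Veh range. The Sox17 difference was 0.73 ± 0.15 (SE, adjusted p = 0.0485), a fold of 1.66. It was the only one of the 10 genes past the threshold of 0.05 with all arrays, while 0.0989% of 18193 genes were called higher in this comparison, and 6 of the 10 and 1741 of all genes had an unadjusted p under 0.05. The call sat close to the threshold: leaving out any single WT PDE10i or WT Veh array except PDE10i array 14 put the adjusted p between 0.0667 and 0.145, with differences of 0.67 to 0.78. Without array 14 the adjusted p was 0.0153. The other Sox17 probe set gave 0.40 ± 0.17 (adjusted p = 0.533 over all probe sets), and the one used here carries the _x_at suffix that Affymetrix gives to sets whose probes can match other sequences.

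Rgs5, a regulator of G-protein signalling that marks pericytes, moved in parallel with the endothelial genes. Its log2 signals were 11.43, 11.39, 11.47, 10.97, 10.52 and 11.14 on WT PDE10i arrays 10 to 15, against 10.49, 10.55, 10.15, 10.55 and 10.55 on WT Veh arrays 1 to 5. Apart from array 14, every treated array was above the Veh range. The difference was 0.69 ± 0.17 (adjusted p = 0.132), a fold of 1.62. All 4 Rgs5 probe sets gave similar values, 0.69 ± 0.17, 0.70 ± 0.25, 0.77 ± 0.20 and 0.79 ± 0.33. Abcb1a, which codes for the drug pump P-glycoprotein of the luminal membrane, had 7.68, 8.17 and 8.37 (lowest, median, highest) with PDE10i, against 7.69, 7.84 and 7.90 with Veh. Arrays 10, 11, 12 and 15 were above the Veh range, and the Abcb1a difference was 0.29 ± 0.12 (adjusted p = 0.435), with 0.51 ± 0.15 at its other probe set. The remaining probe sets of Flt1 (0.03 to 0.11) and the dimmer probe set of Cdh5 (0.09 ± 0.08, mean signal 3.80) lay closer to 0 than those used here.

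Without the arrays of doubtful chromosome 17 score, WT PDE10i in striatum is reduced to arrays 10, 11 and 12, set against the same 5 WT Veh arrays, and 9 of the 10 genes were higher. This setting also takes KO Veh array 25 out of the spread that the striatal groups share in the fit. The background in this setting was 3.12% of 18193 genes called higher. Sox17 (0.97 ± 0.09, fold 1.96), Rgs5 (0.97 ± 0.09, fold 1.96, adjusted p = 1.63e-05) and Tek (0.95 ± 0.20, fold 1.93) had the largest differences. Cdh5 (0.70 ± 0.09), Cldn5 (0.67 ± 0.11), Pecam1 (0.61 ± 0.16), Esam (0.56 ± 0.08), Abcb1a (0.53 ± 0.08) and Kdr (0.48 ± 0.09) also passed. Flt1 did not (0.29 ± 0.10, adjusted p = 0.141). The median difference of the 10 genes was 0.64, against 0.37 with all arrays, and the median of all genes was -0.00697 without and -0.00045 with those arrays. The 3 arrays that this setting removes from the treated group are the 3 with the lowest vascular signal in it. Without the 4 striatal arrays of highest Gapdh difference, 0 of the 10 were called by limma, beside 0.121% of genes called higher. Of the 10 genes 9, and 2501 of all genes, then had an unadjusted p under 0.05, and the median difference of the 10 was 0.39. Without those 4 and KO Veh array 25, Sox17 (0.70 ± 0.14, adjusted p = 0.0287) and Rgs5 (0.75 ± 0.16, adjusted p = 0.035) passed, beside 0.473% of genes called higher. This setting was added after the data were seen. KO Veh array 25 is in neither group compared, and leaving it out changed no difference (median again 0.39). It entered only through the spread that the striatal groups share in the fit.

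**Figure D3:**
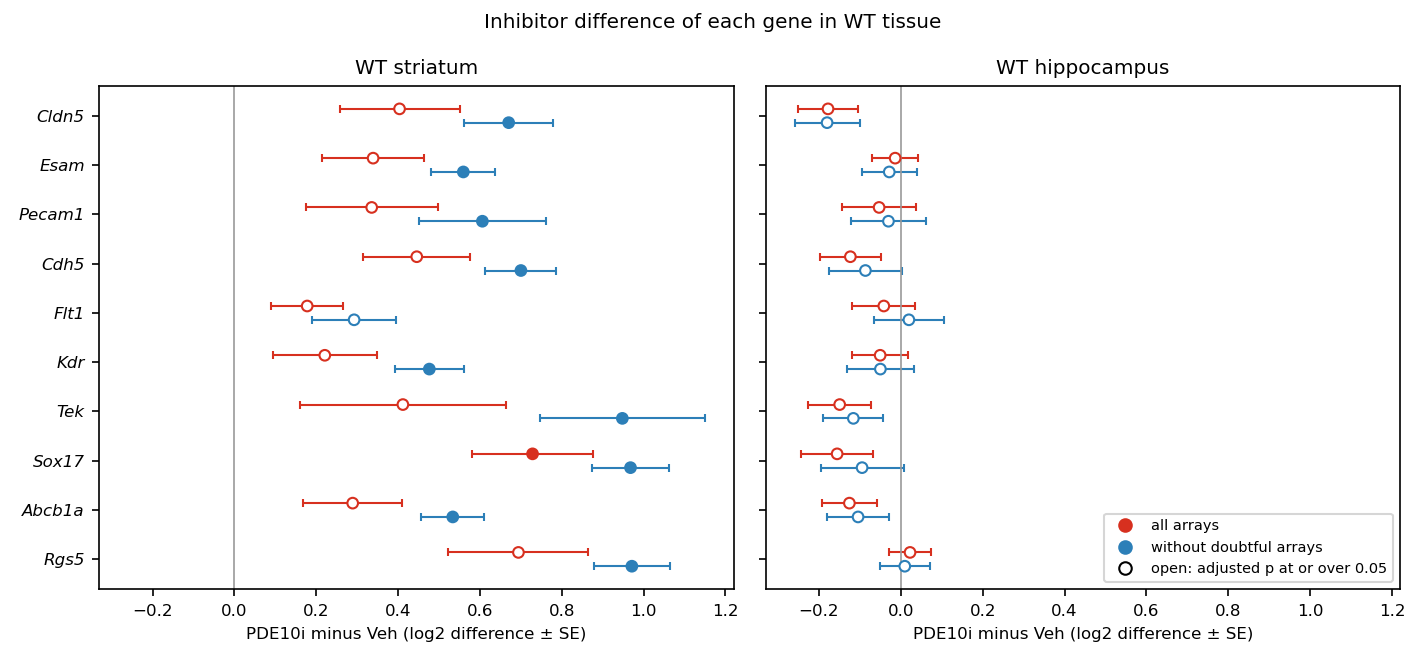
PDE10i minus Veh log2 difference with its SE for each of the 10 genes in WT striatum and WT hippocampus, with all arrays and without those of doubtful chromosome 17 score; filled symbols mark an adjusted p under 0.05. All 10 differences are positive in striatum, from 0.18 for Flt1 to 0.73 for Sox17 with all arrays, and those in hippocampus lie between -0.18 and 0.02.

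Other vascular genes were followed in 6 lists of 106 tested genes that do not include the 10. With all arrays, limma called 0 of the 106 between WT PDE10i and WT Veh in striatum, and 31 had an unadjusted p under 0.05, of which 30 were higher with PDE10i. Without the arrays of doubtful score 24 were called, all higher. Among 24 further endothelial genes, 12 rose and 0 fell in that setting, with a median difference of 0.37 over the list, against 0.26 with all arrays. They include Cd93, a lectin-like receptor of endothelial cells (1.33 ± 0.12, SE), Tie1, the partner receptor of TIE2 (1.08 ± 0.12), and Itm2a (0.86 ± 0.09). With all arrays the same differences were 0.87 ± 0.25 for Cd93 (adjusted p = 0.198), 0.71 ± 0.21 for Tie1 (adjusted p = 0.212) and 0.59 ± 0.14 for Itm2a (adjusted p = 0.105).

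The counts of the other lists, whose differences from each other were not tested, stand beside the 3.12% of all genes called higher without the doubtful arrays. Of 21 further genes of barrier junctions and transport, 3 rose without the doubtful arrays: Slco1a4, an organic anion transporter (0.43 ± 0.08), Slc7a5, a carrier of large neutral amino acids (0.63 ± 0.12), and Abcg2, a drug efflux pump (0.52 ± 0.14). Of 20 genes of Notch and Wnt signalling, 4 rose: the Notch target Hey1 (0.57 ± 0.07), the Wnt inhibitor Apcdd1 (0.75 ± 0.12), the Notch ligand Jag1 (0.65 ± 0.14) and the endothelial receptor Notch4 (0.52 ± 0.14). Of 15 genes of VEGF and angiopoietin signalling only Esm1 rose (0.58 ± 0.12), a proteoglycan of endothelial tip cells. Among 16 pericyte genes besides Rgs5, 4 rose, namely Abcc9 (0.77 ± 0.13), Atp13a5 (0.68 ± 0.13), Higd1b (0.63 ± 0.12) and Notch3 (0.54 ± 0.14). Of 10 genes of vascular smooth muscle 0 were called by limma and 1 had an unadjusted p under 0.05, with a median of -0.05, and Acta2, smooth muscle actin, differed by -0.15 ± 0.12. In the 8 lists of other cells (fibroblasts, blood, choroid plexus, microglia, astrocytes, oligodendrocytes, glutamatergic and striatal neurons) 0 genes were called in either setting. Of their 75 genes, 11 without and 10 with the doubtful arrays had an unadjusted p under 0.05. Of all 18193 genes, 2896 without and 1741 with those arrays did.

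**Figure D4:**
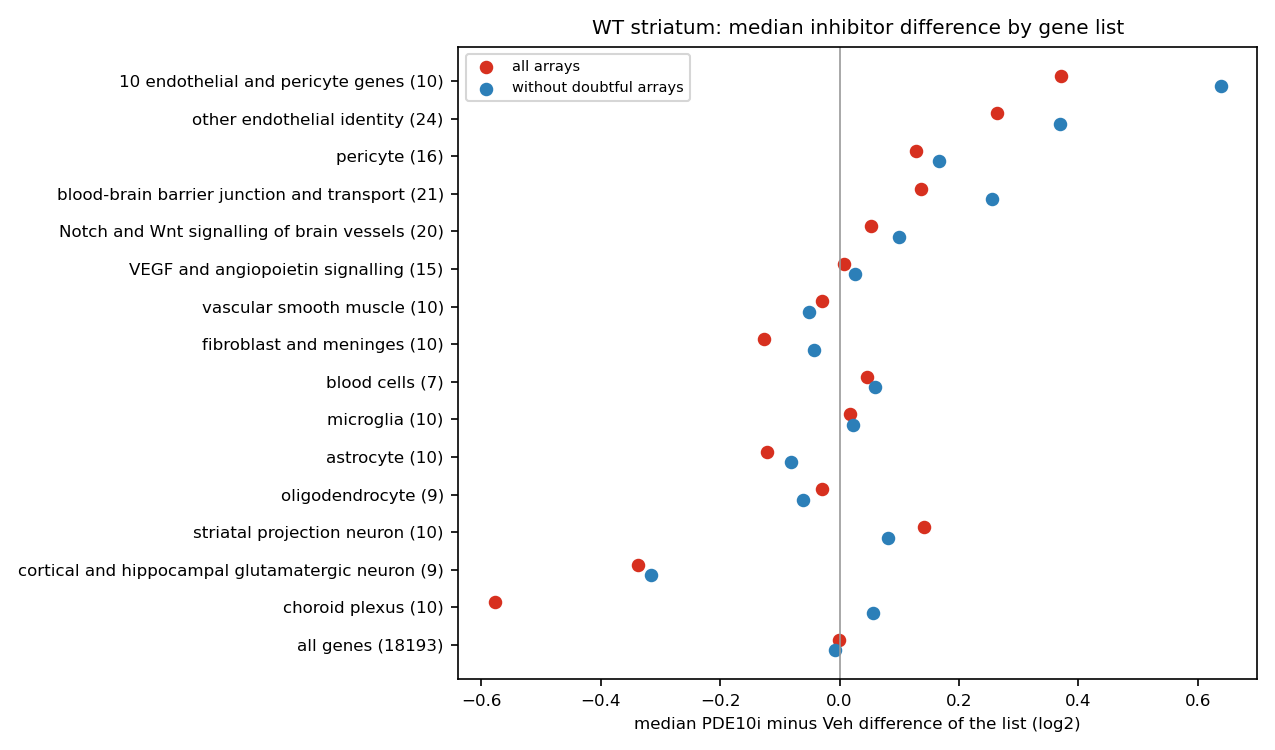
Median PDE10i minus Veh log2 difference over each gene list in WT striatum, with all arrays and without those of doubtful chromosome 17 score, beside the median of all genes. The 10 genes stand at 0.37 and 0.64 and the further endothelial genes at 0.26 and 0.37, while smooth muscle lies at -0.03 and -0.05.

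Other cell types and RNA state were measured on the same arrays. On WT PDE10i arrays 10, 11 and 12 and KO Veh array 25, the mean of the 24 further endothelial genes was 7.20, 7.18, 7.24 and 7.23, against 6.59 to 6.99 on the other 16 striatal arrays. The mean of the pericyte genes was 6.87, 6.72, 6.68 and 6.66 on the same 4 arrays, and here WT PDE10i array 15 (6.75) and KO PDE10i array 35 (6.67) lay among them. The smooth muscle mean did not set treated arrays apart, with 6.00 to 6.24 in WT PDE10i and 6.07 to 6.21 in WT Veh. Genes of cortical and hippocampal glutamatergic neurons, which report tissue next to striatum in the dissected piece, had a mean of 7.73, 8.16 and 9.13 (lowest, median, highest) in WT PDE10i and 7.93, 9.17 and 9.55 in WT Veh. It was 7.73, 8.53 and 8.19 on WT PDE10i arrays 10, 11 and 12. The same mean was 9.13, 7.87 and 8.14 on WT PDE10i arrays 13, 14 and 15. On WT Veh arrays 1 to 5 it was 9.17, 9.35, 8.61, 7.93 and 9.55. With this mean as a covariate, limma called 0 of the 10 genes, beside 0.022% of genes called higher. Of the 10 genes 6, and 2078 of all genes, had an unadjusted p under 0.05, and the median difference of the 10 was 0.41. Sox17 then differed by 0.79 ± 0.16 (adjusted p = 0.0842) and Rgs5 by 0.65 ± 0.19. Choroid plexus genes, a measure of ventricle lining in the piece, had means of 6.12, 9.20 and 5.75 on arrays 10, 11 and 12, which spans nearly the whole range of WT PDE10i (5.70 to 9.20). The part of these measures in the vascular result was otherwise not tested.

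**Figure D5:**
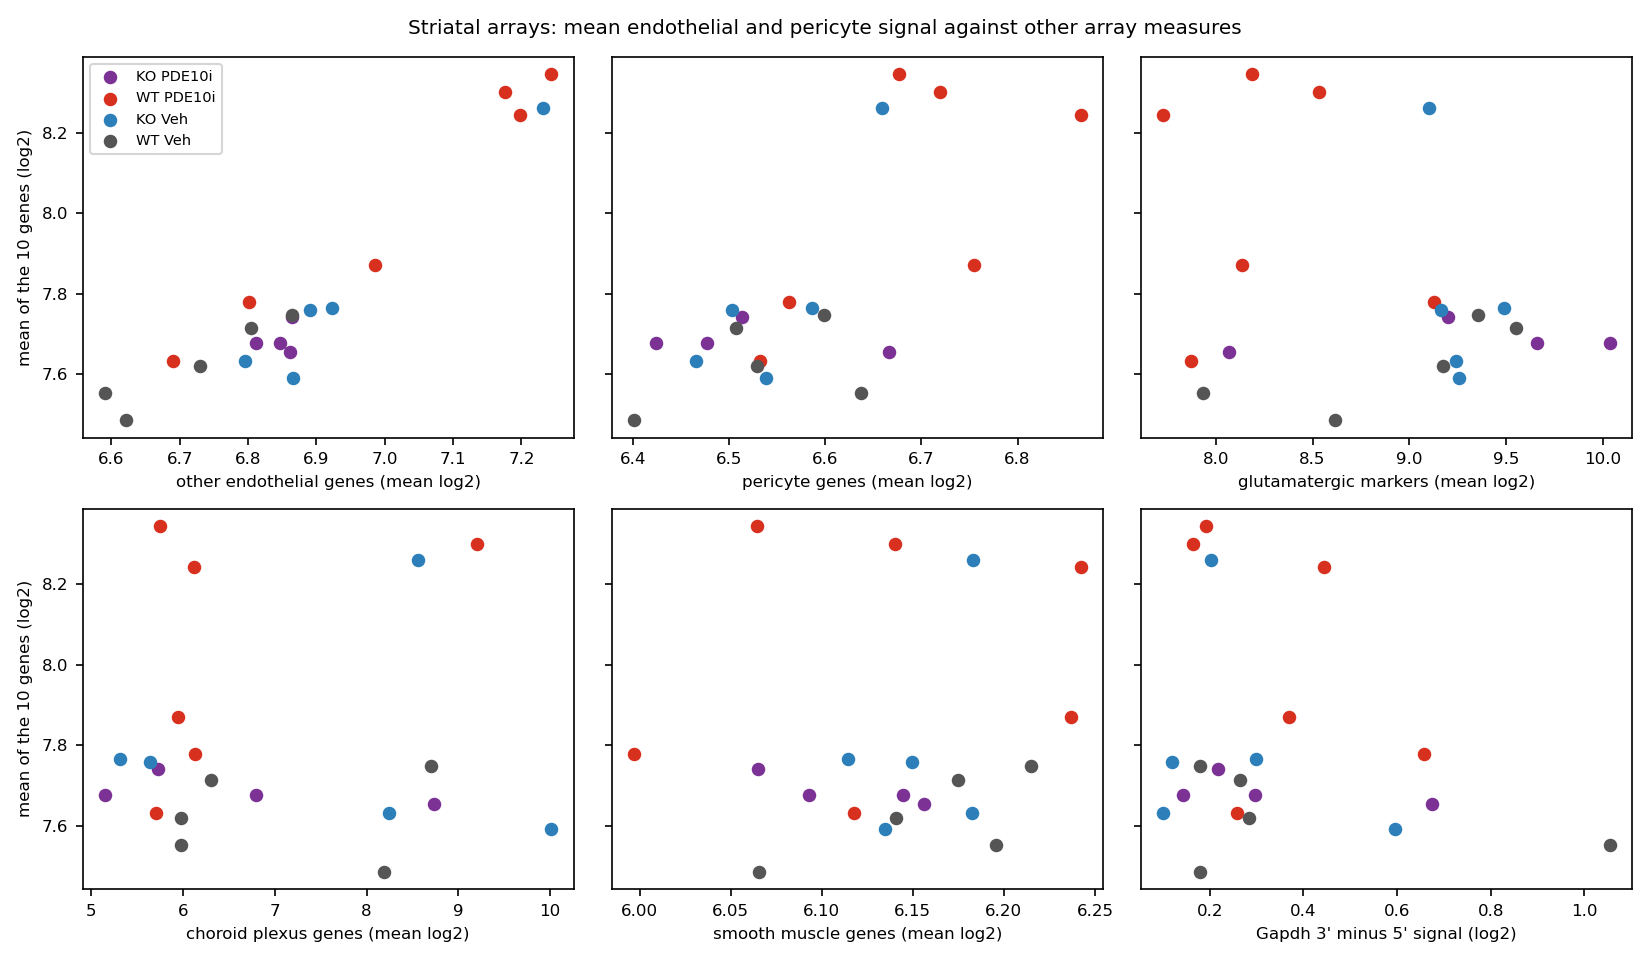
Mean log2 signal of the 10 genes on each striatal array against 6 other measures of the same array: the means of further endothelial, pericyte, glutamatergic neuron, choroid plexus and smooth muscle genes and the Gapdh 3′ minus 5′ difference, with 1 point per array. The 4 arrays with a mean of 8.24 or more are those with the highest means of further endothelial genes, and they have Gapdh differences of 0.16 to 0.44.

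Tek and Pecam1 are singled out here after their values were seen. In each of the 4 striatal groups, the array with the highest Gapdh difference had the lowest Tek and the lowest Pecam1 of its group, as it had for 7.05% of all genes. For the other members this was so in 2 groups (Abcb1a, Sox17), in 1 group (Cdh5, Cldn5, Esam) or in 0 groups (Flt1, Kdr, Rgs5). Tek was 6.31 on KO PDE10i array 35, 6.54 on WT PDE10i array 13, 6.32 on KO Veh array 29 and 6.57 on WT Veh array 4. Pecam1 was 5.88, 5.85, 5.66 and 5.65 on the same arrays, whose Gapdh differences were 0.674, 0.657, 0.595 and 1.05. In hippocampus this was so in 1 of 4 groups for each gene, and there the Gapdh difference did not exceed 0.391. Without the highest Gapdh array of each striatal group, the drug difference in WT was 0.49 ± 0.22 for Tek and 0.35 ± 0.15 for Pecam1.

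In striatum of mice labelled as knockout, PDE10i went with no called change of these genes. Between KO PDE10i and KO Veh all 10 differences were negative, from -0.21 for Tek to -0.04 for Flt1, with a median of -0.11. limma called 0 of the 10 and 0% of 18193 genes, and 0 of the 10 and 257 of all genes had an unadjusted p under 0.05. Rgs5 had log2 signals of 10.55, 10.80, 10.81 and 10.64 on KO PDE10i arrays 34, 35, 37 and 39, against 11.52, 10.51, 10.66, 10.66 and 10.60 on KO Veh arrays 25, 26, 28, 29 and 30. Only KO Veh array 25 lay outside a narrow band that both groups share. Sox17 showed the same layout, with 6.80, 6.60, 6.94 and 6.74 on KO PDE10i arrays, against 7.49, 6.55, 6.85, 6.83 and 6.73 on KO Veh arrays. Without array 25 the 10 differences ran from -0.07 to 0.09, with a median of 0.01.

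The comparison of KO Veh with WT Veh turned on the same array. All 10 differences were positive, from 0.01 for Kdr to 0.33 ± 0.18 for Rgs5 (adjusted p = 0.919), with a median of 0.19. limma called 0 of the 10, beside 0.137% of all genes, and 0 of the 10 had an unadjusted p under 0.05. Without KO Veh array 25 the differences ran from -0.09 to 0.15, with a median of 0.07. This comparison uses the same WT Veh arrays as the drug comparison in WT and the same KO Veh arrays as that in KO.

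Under PDE10i, KO striatum had lower mean signal of these genes than WT striatum, without a call across all arrays. Sox17 differed most, with 6.60 to 6.94 on the 4 KO PDE10i arrays, against 6.83 to 7.65 on the 6 WT PDE10i arrays. The groups overlapped through WT PDE10i array 14. The Sox17 difference was -0.59 ± 0.16 (adjusted p = 0.183), and that of Rgs5 was -0.45 ± 0.18. Over the 10 genes the median was -0.35 and all were negative. limma called 0 of the 10 and 0% of all genes, while 5 of the 10 and 2216 of all genes had an unadjusted p under 0.05. Without the doubtful arrays 8 of the 10 were lower, at a background of 4.25% of genes called lower. Tek fell by 0.96 ± 0.21, Sox17 by 0.83 ± 0.10 and Rgs5 by 0.73 ± 0.10, whereas Pecam1 (-0.49 ± 0.16, adjusted p = 0.091) and Flt1 (-0.21 ± 0.11, adjusted p = 0.34) did not pass.

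Whether the drug difference itself depended on genotype was tested with the interaction, the drug difference in KO minus that in WT. With all arrays it was negative for all 10 genes, with a median of -0.49, and limma called 0 of the 10 and 0% of all genes. Its size was -0.85 ± 0.22 for Sox17 (adjusted p = 0.369) and -0.78 ± 0.26 for Rgs5, and 5 of the 10 and 1346 of all genes had an unadjusted p under 0.05. Without the 4 doubtful arrays of striatum 6 of the 10 passed, all lower, at a background of 0.66%. These were Sox17 (-0.94 ± 0.13), Rgs5 (-0.88 ± 0.13), Cdh5 (-0.77 ± 0.12), Esam (-0.55 ± 0.11), Kdr (-0.53 ± 0.12) and Abcb1a (-0.51 ± 0.11). Tek had the largest value but also the largest error (-1.02 ± 0.28, adjusted p = 0.124), and Cldn5 was just short of the threshold (-0.65 ± 0.15, adjusted p = 0.0528). The call therefore depends on whether arrays are kept whose chromosome 17 score goes against their label.

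In hippocampus none of the 10 drug differences in WT passed the test, and 9 were negative. They began at -0.18 ± 0.07 for Cldn5 (adjusted p = 0.412), and Rgs5 alone was positive at 0.02 ± 0.05. Cldn5 had 8.87, 8.81, 9.12, 9.03, 8.76 and 9.02 on WT PDE10i arrays 10 to 15, against 9.17, 9.15, 9.06, 9.07, 9.04 and 9.20 on WT Veh arrays 1 to 6. All PDE10i arrays except array 12 were below every Veh array for Cldn5. limma called 0 of the 10 and 0% of all genes, with 1 of the 10 and 1948 genes at an unadjusted p under 0.05. Sox17 had 6.61, 6.68, 6.34, 6.63, 6.48 and 6.46 with PDE10i, against 6.78, 6.73, 6.78, 6.50, 6.76 and 6.59 with Veh. Its call in striatum sat close to the threshold, as given above. Removing the doubtful arrays left differences of -0.18 to 0.02.

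The comparisons that involve hippocampal KO arrays gave small differences, none of them called. Between KO and WT under PDE10i all 10 differences were positive, from 0.03 to 0.29 with a median of 0.15, and 0 were called by limma (3 had an unadjusted p under 0.05) beside 0.0055% of genes, which is a single gene. Abcb1a had 7.73, 7.97, 7.79, 7.95 and 7.78 on the 5 KO PDE10i arrays, against 7.58, 7.50, 7.56, 7.68, 7.46 and 7.55 on the 6 WT PDE10i arrays. These groups did not overlap, and the difference was 0.29 ± 0.07 (adjusted p = 0.162). At the other Abcb1a probe set they did overlap, with 6.90 to 7.315 in KO PDE10i and 6.47 to 7.02 in WT PDE10i. Rgs5 differed by 0.20 ± 0.05 (adjusted p = 0.185) and Tek by 0.19 ± 0.08. Rgs5, at the probe set used, did not overlap either (10.52 to 10.77 against 10.36 to 10.51). The share of all genes without overlap between these groups was not counted. PDE10i against Veh in KO gave 0.01 to 0.17 (0 of the 10 called by limma and 0 at an unadjusted p under 0.05; 0% of genes called). KO against WT under Veh gave -0.12 to 0.14 (0 called, 1 unadjusted; 0% of genes), with Rgs5 highest at 0.14 ± 0.05 (adjusted p = 0.659). The interaction was 0.05 to 0.25 (0 called, 1 unadjusted; 0% of genes), largest for Abcb1a (0.25 ± 0.10, adjusted p = 0.367). None of these 4 comparisons called any of the 10 genes without the doubtful arrays either, and at most 2 of the 10 had an unadjusted p under 0.05 in any of them.

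Between striatum and hippocampus, genes of this set, each at its brightest probe set, passed with all arrays only in WT mice given PDE10i. In the WT PDE10i group 8 of the 10 genes were higher in striatum, where 18.4% of all genes were called higher in striatum. Sox17 differed by 0.82 ± 0.12 (striatum minus hippocampus), Rgs5 by 0.69 ± 0.12, Cdh5 by 0.56 ± 0.10 and Abcb1a by 0.53 ± 0.10. Cldn5 (0.52 ± 0.11), Tek (0.47 ± 0.18, adjusted p = 0.0387), Esam (0.43 ± 0.09) and Flt1 (0.29 ± 0.08) also passed, and Pecam1 (0.30 ± 0.13, adjusted p = 0.0634) and Kdr (0.24 ± 0.10, adjusted p = 0.0625) did not. Without the doubtful arrays all 10 passed, at 15.4% of genes. In the other groups limma called 0 of the 10, although many genes differ between these regions. The differences were -0.16 to 0.06 in KO PDE10i (26.1% of genes called, 0 of the 10 at an unadjusted p under 0.05), 0.04 to 0.27 in KO Veh (27.3% of genes, 3 unadjusted) and -0.09 to 0.12 in WT Veh (33.9% of genes, 0 unadjusted). With every probe set tested, 1 of the 10 passed in WT Veh. Another bright Flt1 probe set averaged 8.54 in striatal and 8.21 in hippocampal WT Veh, while the dimmest Flt1 set had 6.15 and 6.19.

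The drug difference in WT was compared between regions directly, as striatum minus hippocampus. Sox17 passed, at 0.88 ± 0.17 (adjusted p = 0.0124), and was the only 1 of the 10 with all arrays, beside 0.154% of genes called in this direction. With the mean of its probe sets in place of the _x_at set, the Sox17 value was 0.65 and was not called (adjusted p = 0.0753). Rgs5 was next in size (0.67 ± 0.18, adjusted p = 0.0876), then Cldn5 (0.58 ± 0.16) and Cdh5 (0.57 ± 0.15), and 8 of the 10 and 2310 of all genes had an unadjusted p under 0.05. Beyond the 10 genes, 3 of the 106 vascular list genes passed, Itm2a (0.67 ± 0.15), Sox18, a relative of Sox17 in endothelium (0.59 ± 0.13), and the pericyte gene Atp13a5 (0.68 ± 0.15). Without the doubtful arrays 9 of the 10 passed, at a background of 3.3%, and Flt1 did not (0.27 ± 0.13, adjusted p = 0.291). The KO minus WT difference under Veh, compared between regions in the same way, was 0.08 to 0.30. limma called 0 of the 10 and 0.0495% of genes there, with 0 of the 10 at an unadjusted p under 0.05.

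The 10 genes varied together across arrays to different degrees. After each group's mean was removed, a gene's correlation with the mean of the other 9 ran from 0.507 (Flt1) to 0.936 (Abcb1a) over the 20 striatal arrays and from 0.269 (Kdr) to 0.624 (Sox17) over the 22 hippocampal arrays. These arrays share tissue composition and RNA state, and the values are descriptions. In striatum without the WT PDE10i group and KO Veh array 25 the range was 0.0703 (Flt1) to 0.904 (Abcb1a), the Flt1 value being near 0 there. A gene's correlation was higher in striatum than in hippocampus for 9 of the 10 (not Flt1), and for 6 of the 10 without those striatal arrays; this difference was not tested. Of all other genes, those most like the mean of the 10 over 42 arrays were Abhd12, a lipase (r = 0.905), Kank3 (0.887), Cby1, a regulator of beta-catenin (0.88), Tie1 (0.877), the chemokine gene Cxcl12 (0.876), Cd93 (0.872), the helicase gene Dhx32 (0.871) and Ptprb, the endothelial phosphatase that acts on TIE2 (0.87). In hippocampus alone Ptprb kept the highest of these correlations (0.839) and Cby1 the lowest (0.332). Without the pair of arrays farthest from the median, striatal KO Veh array 25 and WT PDE10i array 14, the 8 values over the remaining arrays were 0.775 to 0.834.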

How the data were processed

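The authors deposited log2 values in a single table of 45101 probe sets and 42 arrays, computed by RMA per the submitters' processing notes. A genome build and software versions were not given in the sources used here. Values ran from 2.545 to 15.121 and array medians from 6.05 to 6.119, no pair of arrays was identical, and the number of arrays limits the precision. Groups came from the sample labels. Probe sets were named from GEO's platform annotation, which gave a single gene for 34945, several for 932 and none for 9160, with 64 controls removed. Symbols were updated through RefSeq gene IDs for 34741 probe sets, and each of 18193 genes was represented by its probe set of highest mean over the 42 arrays.

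Differences were fitted with limma 3.58.1 (R 4.3.3, lmFit and eBayes), with the 4 groups of a region sharing a fit and all 8 groups for contrasts between regions. P-values of each of 16 comparisons were adjusted over all genes (Benjamini-Hochberg) and called under 0.05. The fit was tested on simulated data. The members and lists were chosen with earlier results of these data known, and all 10 members were named, with list genes named where they passed the test. The chromosome 17 score used 15 of 834 genes, chosen for genotype in the other region. Alternatives changed the probe set rule, a filter at log2 6, normalization, array weights, the groups fitted, trend and covariates, or left out arrays. Arrays of both regions were fitted as unpaired, and the check below could not settle whether shared numbers mark the same mouse. List genes without a single-gene probe set were not analysed here.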

Additional observations from a re-analysis of the deposited data

Results flagged for a closer look

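Of 80 sets of values (a gene in a group of 4 to 6 arrays), 6 held an array far from the rest of its group, while chance gives about 1 in 20. In striatum, KO Veh array 25 was the highest of its group for Rgs5 (11.52, next 10.66), Cdh5 (6.67, next 6.25) and Kdr (7.94, next 7.44). These are 3 of the 10 genes on 1 array, and the same array carries a chromosome 17 score on the WT side. Striatal WT Veh array 3 was the lowest of its group for Rgs5 (10.15, next 10.49). Because it lowers the WT Veh mean, it enters each comparison of Rgs5 with that group. In hippocampus, WT PDE10i array 15 was the lowest for Esam (7.21, next 7.34) and WT PDE10i array 13 the lowest for Rgs5 (10.36, next 10.46). The drug difference of Sox17 in WT mice differed between regions by the test of that difference, by 0.88 (striatum minus hippocampus, limma adjusted p = 0.0124).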

How the results depend on the processing

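No difference of the 10 genes past the threshold changed sign under any alternative run. For PDE10i against Veh in WT striatum, 33 genes passed with all arrays, against 19 with each gene's mean over probe sets, 18 with every probe set tested, 195 with array weights, 20 with only these groups fitted, 86 without the arrays of highest Gapdh difference, 769 without those of doubtful score, 9 with the glutamatergic mean as a covariate and 204 in the setting added after seeing the data. That setting leaves out the highest Gapdh arrays and KO Veh array 25. Of the 10 genes 1 passed, against 9 without the doubtful arrays, 2 with array weights, 2 in the added setting, and 0 with the gene mean, every probe set, only these groups, the highest Gapdh arrays left out, or either covariate (glutamatergic mean or Gapdh difference). Leaving out 1 array gave 4 to 73 genes and 0 to 3 of the 10.

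For KO against WT under Veh in striatum, 25 genes became 87 (weights), 9 (only these groups), 0 (highest Gapdh out), 145 (doubtful out) and 14 (added), and 8 to 82 without 1 array. Under PDE10i, 0 became 1027 (weights), 531 (highest Gapdh out), 1187 (doubtful out) and 1039 (added), 0 to 187 without 1 array, and of the 10 genes 3 (weights), 8 (doubtful out) and 1 (added). The striatal interaction went from 0 to 4 (gene mean), 1 (every probe set), 1 (weights), 10 (highest Gapdh out) and 158 (doubtful out), with 6 of the 10 in the last and 0 to 1 genes without 1 array.

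In hippocampus, PDE10i in WT gave 154 genes with weights (0 otherwise) and 0 to 14 without 1 array, KO against WT under Veh gave 15 without doubtful arrays, and the interaction 0 to 1 without 1 array. KO against WT under PDE10i went from 1 gene to 7 (gene mean), 2 (median subtracted), 658 (weights), 10 (doubtful out) and 0 to 4 without 1 array, and to 0 with every probe set, the filter at log2 6, quantile normalization, only these groups, trend, highest Gapdh out or either covariate. Of the 10 genes 1 passed there with weights.

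Between regions, 1 of the 10 passed in WT Veh with every probe set. In KO Veh 2 passed with quantile normalization and 1 each with the gene mean, the highest Gapdh arrays out, the replicate block, and striatal KO Veh array 26 or 29 left out (0 to 1 without 1 array). In WT PDE10i 7 to 10 passed without 1 array. The region difference of the drug effect had 39 genes, against 23 (gene mean), 617 (weights), 119 (highest Gapdh out) and 785 (doubtful out), and 19 to 154 without 1 array. Of the 10 genes 0 passed with the gene mean (Sox17 0.65, adjusted p = 0.0753), 5 with weights, 9 without doubtful arrays and 1 to 4 without 1 array (4 without striatal WT PDE10i array 14). That of the KO effect had 9, against 23 (weights), 2 (only these groups), 0 (highest Gapdh out), 34 (doubtful out), 0 (replicate block) and 2 to 28 without 1 array. The causes of these changes were not tested.

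Whether numbers shared by striatal and hippocampal arrays mark the same mouse was not settled. Deviations of 20 same-number pairs correlated between -0.382 and 0.305, 6 above 0.1, which cannot exclude a shared mouse. By chromosome 17 score, KO Veh 25 (0.0982 and -0.0016) and WT PDE10i 14 (0.787 and 0.79) lay on the other genotype's side in both regions. WT PDE10i 12, 13 and 15 and KO Veh 26 did so in a single region. Contrasts between regions treated arrays as unpaired, except with the replicate block. With the replicate block the Sox17 region difference was 0.90 (adjusted p = 0.044). Within a region no paired analysis was possible because the groups compared share no number. Probe sets of low signal limit what can be seen of dim genes such as Pecam1 and Cdh5.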
